A study of Mus musculus with 36 samples.

Results

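Bidirectional promoters of protein-coding genes were followed with DNase-seq in the mouse pre-B line B3. A DNase hypersensitive site (DHS) was taken as one where it was at least 450 bp wide and lay within 1000 bp of the annotated start sites of 2 different protein-coding genes on opposite strands (GENCODE vM21 basic annotation, mouse assembly mm10). Of 52788 DHS, 993 met the rule (1.88%). They made up 11.3% of the 8784 DHS of that width near a protein-coding start, and the other 7791, with no such pair within reach, served as one-directional promoters for comparison. A further 188 DHS met the start-site rule but were narrower. The narrowest member was 494 bp wide and the widest DHS left out for its width was 421 bp, so no member sat close to the limit.

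At a bidirectional promoter a pair of genes starts head to head from the same stretch of open DNA, and polymerases are loaded in both directions. Such promoters are usually rich in CpG dinucleotides and poor in TATA boxes. Their genes are often housekeeping genes, among them genes of DNA repair, the mitochondrion and RNA processing, and paired genes need not be used at the same rate. DNase I cuts DNA where nucleosomes are absent or loose, so a high signal at a promoter reports open chromatin, not transcription.

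The stretch between the start sites is shown for 9 pairs, chosen because they are textbook head-to-head pairs or had the largest differences described further on. Each is the forward strand of the mm10 reference genome between the starts, so the first gene of a pair reads to the left of it and the second to the right, and capitals mark letters of the motifs searched. The intervals are chr1:55088025-55088131 for the chaperonin pair Hspd1/Hspe1, chr11:101551880-101552148 for Brca1/Nbr1, chr17:15499752-15499887 for Psmb1/Tbp, chr7:45526269-45526329 for Ppp1r15a/Plekha4 and chr5:100798599-100798626 for Helq/Mrps18c. They are chr17:34122601-34122831 for Brd2/H2-DMa, chr13:68582122-68582247 for Mtrr/Fastkd3, chr1:93754781-93754904 for Thap4/Atg4b and chr1:86426229-86426328 for Nmur1/Tex44.
Hspd1/Hspe1: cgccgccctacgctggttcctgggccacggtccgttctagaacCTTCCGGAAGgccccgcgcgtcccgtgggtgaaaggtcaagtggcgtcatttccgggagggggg
Brca1/Nbr1: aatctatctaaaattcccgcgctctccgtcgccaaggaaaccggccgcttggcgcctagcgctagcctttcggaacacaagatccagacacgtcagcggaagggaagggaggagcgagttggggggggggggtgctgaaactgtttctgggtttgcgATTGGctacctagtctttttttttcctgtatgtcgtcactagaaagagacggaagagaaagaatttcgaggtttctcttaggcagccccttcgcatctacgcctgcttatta
Psmb1/Tbp: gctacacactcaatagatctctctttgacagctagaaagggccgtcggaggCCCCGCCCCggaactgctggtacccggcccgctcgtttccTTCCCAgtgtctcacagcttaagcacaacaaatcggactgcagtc
Ppp1r15a/Plekha4: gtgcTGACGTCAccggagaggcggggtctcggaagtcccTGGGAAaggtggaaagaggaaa
Helq/Mrps18c: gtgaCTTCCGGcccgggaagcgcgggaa
Brd2/H2-DMa: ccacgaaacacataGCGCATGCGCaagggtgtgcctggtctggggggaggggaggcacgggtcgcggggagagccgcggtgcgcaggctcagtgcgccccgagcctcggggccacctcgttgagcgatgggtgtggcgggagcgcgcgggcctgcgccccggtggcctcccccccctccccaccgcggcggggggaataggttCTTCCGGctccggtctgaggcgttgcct
Mtrr/Fastkd3: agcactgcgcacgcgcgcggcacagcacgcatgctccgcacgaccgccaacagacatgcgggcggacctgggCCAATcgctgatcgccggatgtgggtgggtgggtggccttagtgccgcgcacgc
Thap4/Atg4b: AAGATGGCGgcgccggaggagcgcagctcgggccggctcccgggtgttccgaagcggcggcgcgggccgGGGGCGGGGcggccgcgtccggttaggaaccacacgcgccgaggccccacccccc
Nmur1/Tex44: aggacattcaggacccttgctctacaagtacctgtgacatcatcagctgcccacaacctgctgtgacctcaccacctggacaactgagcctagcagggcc

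Capitals mark a pair of overlapping ETS matches in the Hspd1/Hspe1 stretch and a CCAAT box, read on the reverse strand, in that of Brca1/Nbr1. Psmb1/Tbp holds an SP/KLF match and an Ikaros core, Ppp1r15a/Plekha4 a CRE and an Ikaros core, and Brd2/H2-DMa an ETS match and 2 overlapping NRF1 matches. Thap4/Atg4b holds a YY1 and an SP/KLF match, Mtrr/Fastkd3 a CCAAT box and Helq/Mrps18c an ETS match. The 9 stretches are 28 to 269 bases long. The Brd2/H2-DMa stretch has a GC content of 74.0% with 26 CpG, whereas Nmur1/Tex44 has 56.0% with 0 CpG and no match. Unlike the others, the Nmur1/Tex44 stretch lies outside its DHS (chr1:86425157-86425658).

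B3 cells of both lines carried a retroviral MSCV vector. In the Ikaros line it encoded a fusion of HA-tagged wild type Ikaros and the hormone-binding domain ERt2, followed by IRES and GFP. In the control line, described by the study as carrying an empty vector, it encoded ERt2, IRES and GFP without Ikaros. Ikaros is a zinc finger transcription factor of lymphocytes, and 4-hydroxytamoxifen (4-OHT) brings the fusion protein into the nucleus. Both lines were sampled at 0, 2, 6, 12, 18 and 24 h with 3 replicates each, which gives 12 groups and 36 libraries. The labels name 0.5 uM 4-OHT for all of them, while the study's methods give none to the 0 h cells, which were collected separately. Each line is 1 transduced line, so the effect of Ikaros and other differences between the lines cannot be told apart. Replicates 4, 5 and 6 belong to batches 11, 12 and 13 in both lines. P-values measure the spread between these libraries that the authors' noise correction left, and that spread may be technical. Promoter DHS were found at 9 of 10 B-lineage marker genes, at 2 of 9 T-cell, 1 of 8 myeloid, 2 of 7 erythroid and 1 of 8 non-hematopoietic genes.

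Values are given as the log2 of read density (RPKM), which the authors scaled between libraries and then corrected for noise with the groups known. Over this table the 12 group means span 6 of 11 possible dimensions, so the means are not independent of each other. The times averaged further on are therefore not separate evidence. A correction made with the groups known can shrink the spread within them, so p-values may be too small. The study's methods state a minimum depth per replicate, and the depth of each library is unknown from these values. The median over the members differed between the replicates of a group by up to 0.42. Directions over the whole set are given below with those after quantile normalization and after each library's trends with level, GC content and width were removed.

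Start sites were close. The distance from the reverse-strand start to the forward-strand start had a median of 98 bp with quartiles of 31 and 232 bp. In 813 members the starts pointed away from each other, and in 180 the forward start lay at or before the reverse start, so that the 5′ ends overlap. Both starts lay inside the DHS in 728 members, 1 in 198 and none in 67. The members covered 941 gene pairs and 1880 genes on 20 chromosomes, with 22 members on X. A member is named by its gene on the reverse strand and that on the forward strand, and where a pair had 2 DHS they are numbered by position. In 27 members at least 3 coding genes lay within reach.

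**Figure D1:**
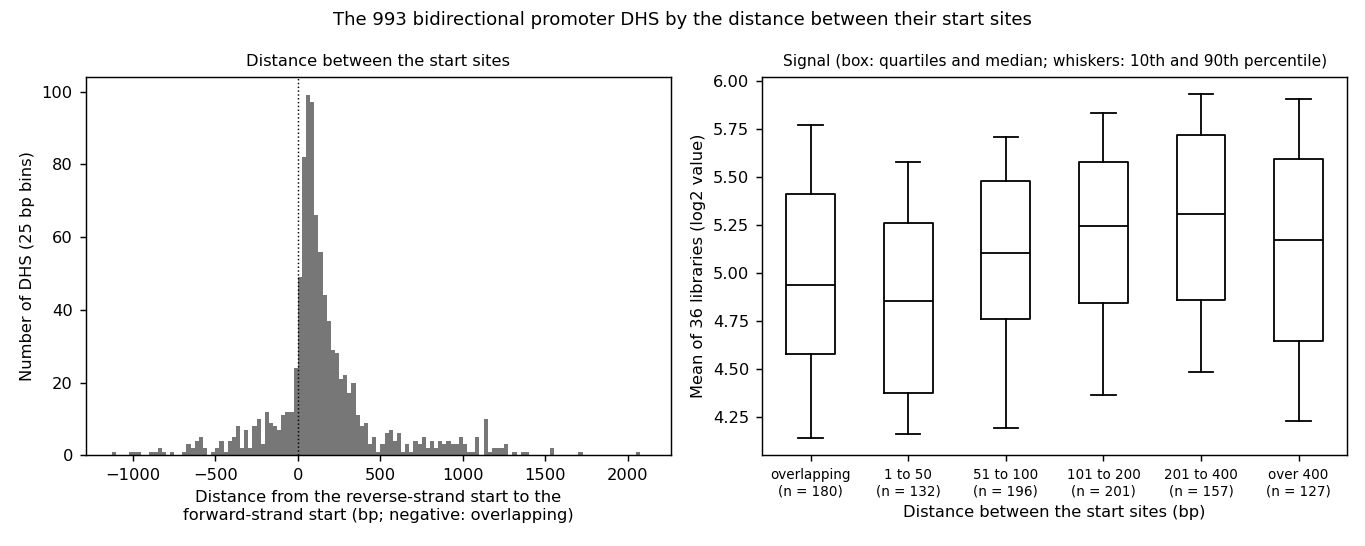
Left, the number of members (y axis) by the distance between the start sites in bp, in bins of 25 bp. Right, the mean log2 value over 36 libraries by class of distance, with boxes for quartiles and median and whiskers for the 10th and 90th percentile. The median goes from 4.85 at 1 to 50 bp to 5.31 at 201 to 400 bp.

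Members whose starts were 1 to 50 bp apart had the lowest median log2 value, 4.85 (n = 132). It was 5.10 at 51 to 100 bp (n = 196), 5.24 at 101 to 200 bp (n = 201), 5.31 at 201 to 400 bp (n = 157) and 5.17 beyond 400 bp (n = 127), and 4.94 for the 180 overlapping pairs. The quartiles of the classes overlap, for example 4.38 to 5.26 at 1 to 50 bp and 4.86 to 5.72 at 201 to 400 bp. Median width goes the same way, from 541.5 bp at 1 to 50 bp to 604 bp at 201 to 400 bp, and its part in the level was not tested.

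The members were among the most open sites of the table. Their median log2 value was 5.14, against 4.76 for one-directional promoters, 4.59 for the narrow DHS of the same start-site rule and 3.95 for all DHS. Of the members, 95.0% lay above the median of all DHS, and 729 of 993 did so in every library. The median over members exceeded that over one-directional promoters in 36 of 36 libraries, by 0.23 to 0.42. Members were a little wider (median 570 against 542 bp), slightly richer in GC (62.5% against 60.7%) and in CpG (observed to expected ratio 0.825 against 0.780), while all DHS had 50% GC and a ratio of 0.266. The parts of width, GC content and CpG in the level were not tested.

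**Figure D2:**
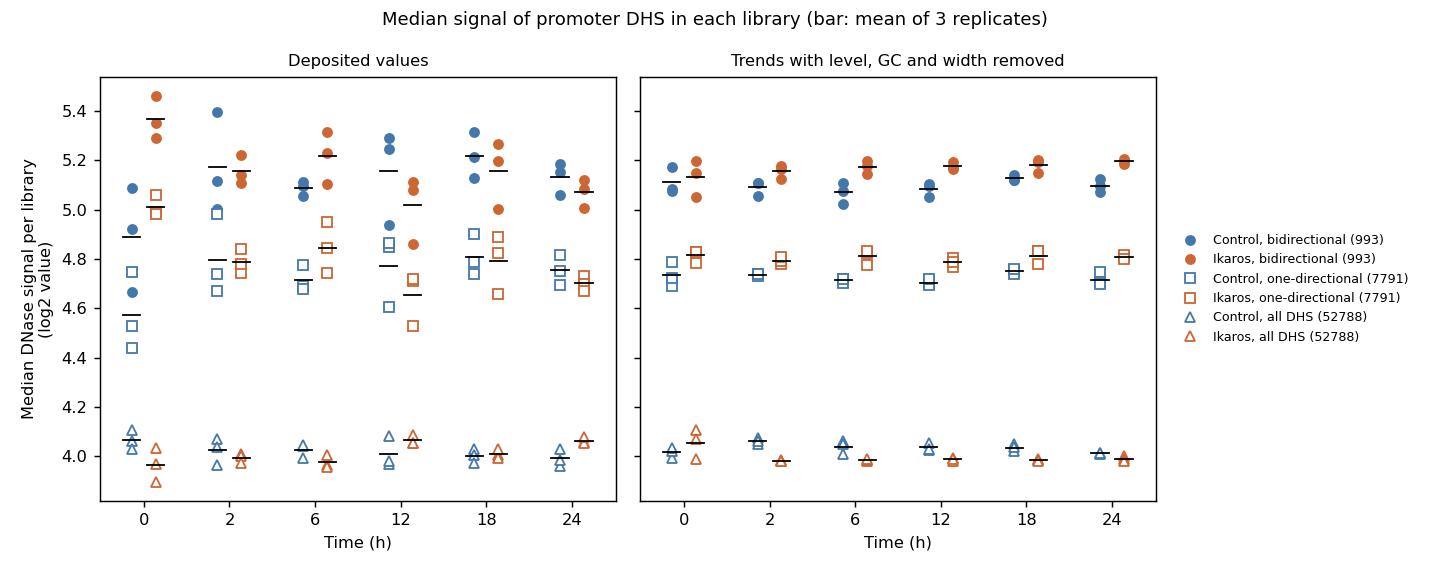
Median log2 value per library (y axis) by time in hours for members, one-directional promoters and all DHS, as deposited (left) and after trends with level, GC content and width were removed (right), with bars for means of 3 replicates. As deposited, the members' medians run from 4.66 to 5.46 and lie furthest apart between the lines at 0 h, and on the right the 0 h groups overlap.

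The most open members were Chtf18/Rpusd1 (6.83), Aasdhppt/Kbtbd3 (6.57), Acot8/Zswim3 (6.49), Xab2/Pet100 (6.48) and Cep57/Fam76b (6.48), given as mean log2 values over 36 libraries. Chtf18 loads the replication clamp during sister chromatid cohesion, Xab2 acts in splicing and transcription-coupled repair, and Cep57 is a centrosome protein. Least open were Bco2/Il18 (3.24), Ush1g/Otop2 (3.39), Ndufa1/Rnf113a1 (3.44), Tns1/Rufy4 (3.48) and Ifit1bl2/Ifit1 (3.50). Il18 is a cytokine gene and Ifit1 an interferon-induced gene, Ush1g is known from the inner ear, and Ndufa1 encodes a respiratory chain subunit. Every library of the 5 highest lay above every library of the 5 lowest.

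Sequence around the centre of each DHS was searched for 10 motifs, and in percentage points members and one-directional promoters were furthest apart for ETS letters. In a window of 300 bases, both strands searched, CCGGAAG (ETS factors such as GABPA) was found in 32.4% of members, 21.7% of one-directional promoters and 6.31% of all DHS. The YY1 letters AAGATGGCG were in 6.55%, 3.89% and 1.08%, and the CCAAT box bound by NF-Y in 42.8%, 38.8% and 31.8%. Shares of members and one-directional promoters were nearer each other for the NRF1 letters GCATGCGC (7.15% and 6.87%), the SP/KLF letters GGGGCGGGG (20.3% and 22.3%), the E-box CACGTG (11.1% and 12.2%), the CRE letters TGACGTCA (4.93% and 4.04%) and the E2F letters TTTGGCGC (1.01% and 1.10%). TATAAA was in 4.23% of members, 4.34% of one-directional promoters and 13.3% of all DHS. The Ikaros core TGGGAA was in 21.2% of members, 21.6% of one-directional promoters and 24.7% of all DHS. Matches may overlap, as in the Hspd1/Hspe1 and Brd2/H2-DMa stretches above, and a match is a description of the letters only.

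The letters also went with the distance between the starts. ETS letters were in 38.6% of members at 1 to 50 bp, 39.3% at 51 to 100 bp, 33.3% at 101 to 200 bp, 24.8% at 201 to 400 bp and 18.1% beyond 400 bp. CCAAT went the other way, with 29.5%, 37.8%, 48.3%, 52.2% and 52.0%. The window searched lies at the centre of the DHS, not at the starts. That centre lay a median of 32.5 bp from the midpoint of the starts at 1 to 50 bp. The median was 62.5 bp at 201 to 400 bp and 342 bp beyond 400 bp. The part of this offset in the shares was not tested. Members with CCAAT had a median log2 value of 5.34 (n = 425) and those without one 4.98 (n = 568). For ETS the values were 5.15 (n = 322) and 5.11 (n = 671).

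At 0 h the members were mostly more open in Ikaros cells in the deposited values. Of them, 357 of 993 were called (356 higher, 1 lower), 36% against 12.9% of all DHS, and one-directional promoters were close at 33.4%. The median difference, Ikaros minus control, was 0.43 for members, 0.42 for one-directional promoters and -0.06 for all DHS. Within replicates 4, 5 and 6 the member median was 0.31, 0.26 and 0.75. This direction depends on the scaling: with trends removed the median was -0.02 and 62 were called (28 higher, 34 lower), and after quantile normalization 200 were called (191 higher, 9 lower). Of all DHS 2.83% were called with trends removed and 8.35% after quantile normalization. Dropping the library Control 0h replicate 6 left 128 calls, and a fit of the 0 h groups alone left 0. That last fit called only 2 of all 52788 DHS.

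Of the 5 largest 0 h differences 4 are described. At Shc4/Eid1, which pairs an adaptor of receptor tyrosine kinases with an inhibitor of the coactivator EP300, control libraries read 3.12, 3.42 and 2.15 and Ikaros libraries 4.49, 4.32 and 4.48 in replicates 4, 5 and 6. The difference was 1.53 ± 0.25 (SE, n = 3 and 3, limma adjusted p = 0.000506). All Ikaros libraries lay above all control libraries there, as at the next 3. Hnrnpdl/Enoph1 DHS 1, at an RNA-binding protein and a methionine salvage enzyme, read 3.94, 4.56 and 3.72 in control and 5.95, 5.33 and 5.29 in Ikaros cells (difference 1.45 ± 0.22, adjusted p = 0.000236). The differences were 1.50 ± 0.21 at Wbp4/Elf1 DHS 1 (adjusted p = 0.000171; Elf1 is a lymphoid ETS factor) and 1.37 ± 0.28 at the autophagy protease gene pair Thap4/Atg4b (adjusted p = 0.00224). With trends removed only Hnrnpdl/Enoph1 DHS 1 of these 4 was called, and Thap4/Atg4b stood at -0.02. The call at Thap4/Atg4b was lost without replicate 4 as well, and with only the 0 h groups fitted none of the 4 was called.

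The 1 member called lower at 0 h was Ccdc173/Phospho2 DHS 2. It read 4.34, 4.48 and 4.85 in control and 3.84, 3.90 and 4.18 in Ikaros libraries, which did not overlap (difference -0.58 ± 0.20, adjusted p = 0.0477). It was not called with the replicate number as a block, nor in 10 other settings of 14, among them those without replicate 4, 5 or 6.

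**Figure D3:**
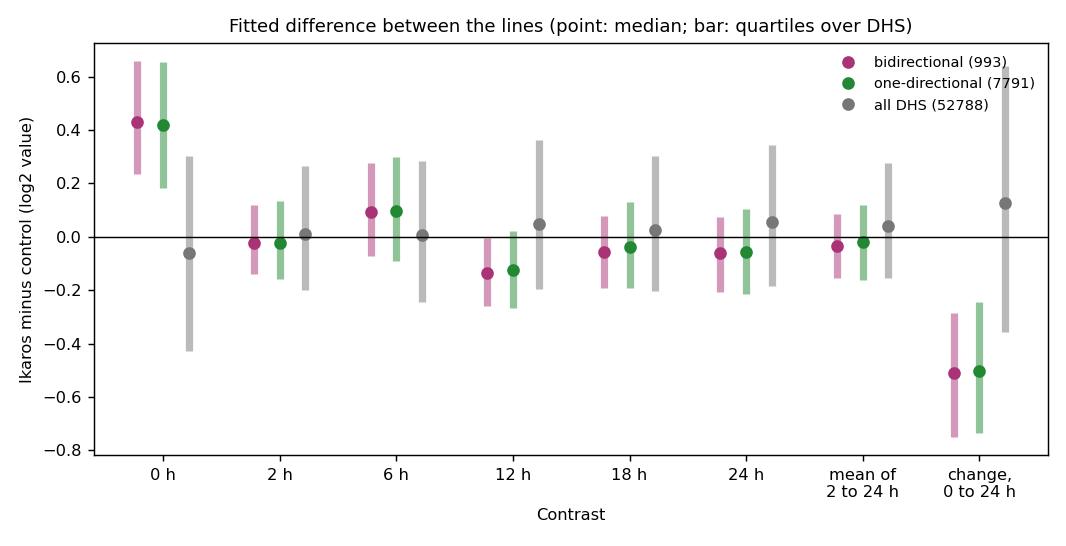
Fitted Ikaros minus control difference in log2 value (y axis) at each time, for the mean of 2 to 24 h and for the change from 0 to 24 h, with points for the median and bars for the quartiles over DHS of each kind. Members and one-directional promoters run together: 0.43 and 0.42 at 0 h, then -0.03 and -0.02 for the mean of 2 to 24 h.

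Once the drug was present, few members passed at any single time. The count was 0 of 993 at 2 h (0.195% of all DHS) and 0 at 18 h (0.699%). At an unadjusted p under 0.05 there were 35 members (3.52%, against 10.0% of all DHS) and 75 (7.55%, against 13.1%). With trends removed the counts at these times were 1 and 3. Without Control 2h replicate 5 or replicate 6 the 2 h count was 2 or 1. Here and below the counts are of limma calls after Benjamini-Hochberg adjustment over all DHS.

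At 6 h, 5 members (0.504%) were called higher in Ikaros cells, against 0.578% of all DHS. Of these, 4 are named because so few passed. The differences were 1.00 ± 0.20 at Eef1akmt3/Mettl1, the second a tRNA methyltransferase, 0.92 ± 0.22 at Zbtb49/Lyar, 0.79 ± 0.18 at Lnx2/Polr1d DHS 2, near a subunit of RNA polymerase I and III, and 0.59 ± 0.14 at Taf6/Cnpy4, near a TFIID subunit. The count was 3 with the replicate number as a block and 8 after quantile normalization or with trends removed. It was 1 without Control 6h replicate 5, 2 without Ikaros 6h replicate 4, and 0 without Ikaros 6h replicate 5 or 6 or with only the 6 h groups fitted. That last fit called only 9 of all 52788 DHS.

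At 12 h, 3 members (0.302%) were called lower, against 1.31% of all DHS: Nmur1/Tex44 (-0.87 ± 0.20), Wbp4/Elf1 DHS 2 (-0.75 ± 0.18) and Helq/Mrps18c (-0.60 ± 0.16). Without Control 12h replicate 4 there were 8, and without Control 12h replicate 5 or any Ikaros 12h library 0. With trends removed 5 were called (0.292% of all DHS), all higher, and quantile normalization gave 3 higher and 1 lower (0.604% of all DHS called).

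At 24 h, 5 members (0.504%) were called, all lower, against 1.33% of all DHS. Nmur1/Tex44, near a neuromedin U receptor gene and a testis gene, read 4.82, 5.09 and 4.92 in control and 4.23, 4.06 and 3.81 in Ikaros libraries (difference -0.91 ± 0.20, adjusted p = 0.0182). No start of that pair lies inside the DHS. The others were Wbp4/Elf1 DHS 2 (-0.71 ± 0.18), Lmf2/Ncaph2 DHS 2 (-0.71 ± 0.18; Ncaph2 is a condensin II subunit), Dusp12/Gm26620 (-0.66 ± 0.17) and Helq/Mrps18c (-0.60 ± 0.16). Helq is a DNA repair helicase and Mrps18c a protein of the mitochondrial ribosome, and their starts are 29 bp apart. Helq/Mrps18c read 4.98, 5.14 and 4.70 in control and 4.19, 4.35 and 4.47 in Ikaros libraries. In all 5 the groups did not overlap. With the replicate number as a block only Nmur1/Tex44 was called, and 0 or 1 was called without any one of the 24 h libraries. With trends removed 7 members were called, all higher, where 0.648% of all DHS were called.

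Averaged over 2 to 24 h, where 15 libraries of each line enter, 245 members passed (24.7%), against 29.5% of all DHS and 27.4% of one-directional promoters. Of these, 83 were higher in Ikaros cells (8.36% of members, against 17.1% of all DHS) and 162 lower (16.3%, against 12.4%). The median over members was -0.03, against -0.02 for one-directional promoters and 0.04 for all DHS, with batch values of -0.05, 0.02 and -0.08 for replicates 4, 5 and 6. As at 0 h, the balance turns with the scaling: 303 higher and 54 lower after quantile normalization (median 0.12), 247 higher and 78 lower with trends removed (median 0.08). Those are 30.5% and 5.44% of members after quantile normalization, and 24.9% and 7.85% with trends removed. Among all 52788 DHS quantile normalization gave 7589 higher and 7203 lower, and trend removal 6199 higher and 6243 lower. Leaving out replicate 5 or 6 in all groups reduced the count to 76 or 80.

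Called members differed in level and distance. Those called higher had a median level of 4.52, a median distance between the starts of 60 bp and a median GC content of 68.0%. Those called lower had 5.43, 135 bp and 60.2%, and those not called 5.14, 97 bp and 62.6%. Among the 249 members of lowest level 46 were higher and 26 lower, and among the 248 of highest level 3 were higher and 67 lower. With trends removed these 248 gave 72 higher and 17 lower.

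By distance, the 1 to 50 bp class had 21 higher and 9 lower of 132, and the 201 to 400 bp class 6 higher and 34 lower of 157. The medians were 0.05 and -0.09. With trends removed they were 0.15 and 0.05, and after quantile normalization 0.18 and 0.06, so the sign of the 201 to 400 bp class turned while the 1 to 50 bp class stayed the higher of the 2. Members with a CCAAT box held 100 of the 162 lower calls (61.7%) and 16 of the 83 higher calls (19.3%), where 42.8% of all members have the box. With trends removed 77 members with the box were higher and 49 lower, against 170 and 29 without it. For the Ikaros core the shares were 20.4% of lower and 14.5% of higher calls, beside 21.2% of all members.

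At 3 members the 15 Ikaros libraries lay entirely below the 15 control libraries (0.302%, against 0.655% of all DHS without overlap). Ppp1r15a/Plekha4 (chr7:45526017-45526539) holds the start of the gene for a regulatory subunit of protein phosphatase 1 that ends the stress-induced block of translation. From 2 to 24 h its control libraries ran from 5.32 to 5.79 with a median of 5.50 and its Ikaros libraries from 4.93 to 5.22 with a median of 5.09. The mean difference was -0.45 ± 0.06 (adjusted p = 5.41e-06), while at 0 h it was 0.03 ± 0.14 (adjusted p = 0.927). Dusp3/Cfap97d1 DHS 1 (chr11:101983967-101984485), at a dual-specificity phosphatase gene, ran from 5.43 to 6.26 with a median of 5.72 in control and from 4.77 to 5.32 with a median of 5.05 in Ikaros libraries (mean difference -0.68 ± 0.10, adjusted p = 7.4e-06). Fbh1/Ankrd16 DHS 1 (chr2:11777368-11777936), at a DNA helicase gene, ran from 5.93 to 6.58 with a median of 6.14 and from 5.55 to 5.91 with a median of 5.76 (mean difference -0.40 ± 0.07, adjusted p = 6.09e-05). All 3 kept their call in 38 of 38 settings.

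Across the deposited values and 5 other settings of the fit (the block, quantile normalization, trends removed, a filter on low values, and only the groups concerned), 97 members were called in the same direction each time, 60 higher and 37 lower. That is 9.77% of members, against 13.8% of all DHS (higher 6.04% against 7.09%, lower 3.73% against 6.68%). The block, the filter and the fit of only the groups concerned leave each estimate as it was, and the filter dropped no member. Only quantile normalization and trend removal could turn a direction. Below, a call held in every setting is one held in these fits, which keep all replicates. Without replicate 5 in all groups 20 members were called higher and 56 lower, and without replicate 6 it was 39 and 41. Nmur1/Tex44 was one of the lower ones, with control libraries from 4.11 to 5.23 with a median of 4.84 and Ikaros libraries from 3.81 to 4.55 with a median of 4.24 (mean difference -0.63 ± 0.09, adjusted p = 6.42e-06). Chosen after their values were seen, Taf6/Cnpy4 and Entr1/Pmpca stand for the higher ones. Taf6/Cnpy4 ran from 4.29 to 4.99 with a median of 4.66 in control and from 4.87 to 5.30 with a median of 5.03 in Ikaros libraries (mean difference 0.42 ± 0.06, adjusted p = 1.15e-05). Entr1/Pmpca, the second a subunit of the mitochondrial processing peptidase, ran from 3.29 to 4.49 with a median of 3.79 and from 4.13 to 4.79 with a median of 4.43 (mean difference 0.67 ± 0.12, adjusted p = 0.000155). In both the ranges of the lines overlap. Their starts are 34 and 23 bp apart.

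**Figure D4:**
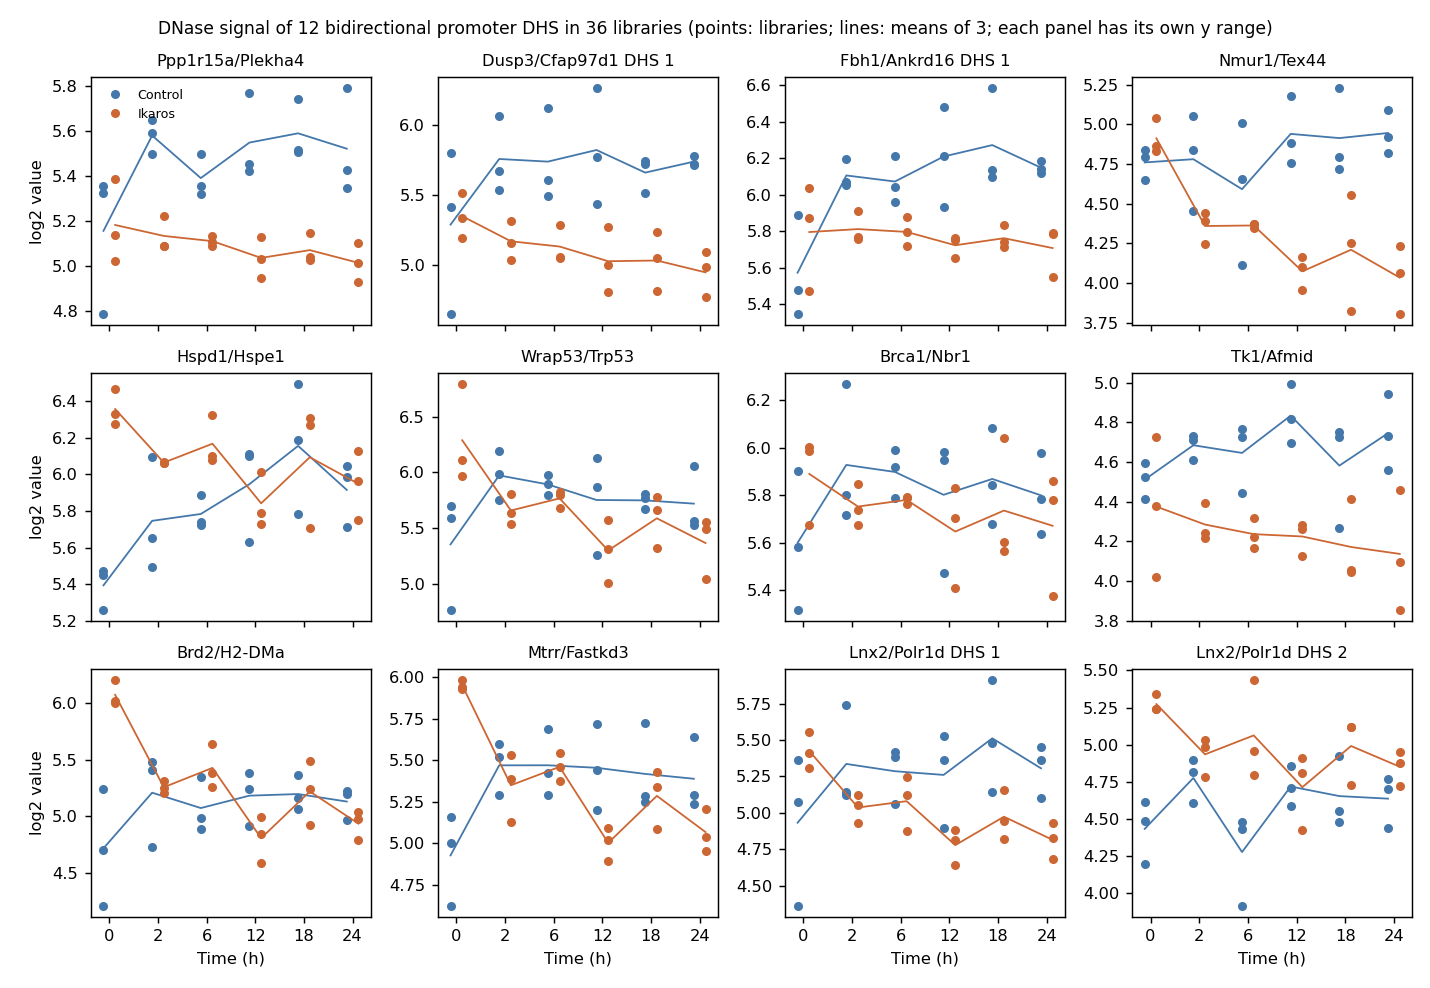
Log2 value (y axis, a range of its own in each panel) by time in hours for 12 members, with a point per library and lines through the means of 3 replicates. In the first 3 panels every Ikaros library from 2 h on lies below every control library from 2 h on, and at Brd2/H2-DMa and Mtrr/Fastkd3 the Ikaros libraries lie above the control libraries at 0 h but not at 24 h.

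Of the textbook head-to-head pairs, 9 were members, and for the mean of 2 to 24 h 2 of 9 were called (22.2%, against 24.7% of members and 29.5% of all DHS), both lower (3 higher and 1 lower with trends removed). At Tk1/Afmid, the thymidine kinase gene and a gene of kynurenine metabolism, control libraries ran from 4.27 to 4.99 with a median of 4.73 and Ikaros libraries from 3.85 to 4.46 with a median of 4.22. The difference was -0.49 ± 0.08 (adjusted p = 3.73e-05) and the call held in all 5 settings named above. At Wrap53/Trp53, a telomerase assembly factor and p53, the ranges were 5.26 to 6.19 with a median of 5.81 in control and 5.01 to 5.83 with a median of 5.58 in Ikaros cells (difference -0.28 ± 0.10, adjusted p = 0.0377), and the call did not hold in all of those settings. Of the rest, 6 stood at -0.19 (Atm/Npat, the DNA damage kinase and a coactivator of histone genes), -0.16 (Hars/Hars2, histidyl-tRNA synthetases), -0.14 (Brca1/Nbr1, homologous recombination and selective autophagy), 0.04 (Sirt3/Psmd13, a mitochondrial deacetylase and a proteasome subunit), 0.07 (Psmb1/Tbp, a proteasome subunit and the TATA-binding protein) and 0.11 (Hspd1/Hspe1, the mitochondrial chaperonin and its partner). Adjusted p for these 6 lay between 0.0813 and 0.79.

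At 0 h, 4 of the 9 were called higher, where 36% of all members and 12.9% of all DHS were called. Hspd1/Hspe1 read 5.45, 5.47 and 5.26 in control and 6.46, 6.27 and 6.33 in Ikaros libraries (difference 0.96 ± 0.17, adjusted p = 0.000968). By 24 h it read 5.99, 5.71 and 6.05 in control and 6.13, 5.96 and 5.75 in Ikaros libraries, which overlap. Wrap53/Trp53 differed by 0.94 ± 0.23 (adjusted p = 0.00842) and Psmb1/Tbp by 0.54 ± 0.16 (adjusted p = 0.022). The line difference at Hspd1/Hspe1 and Wrap53/Trp53 changed from 0 to 24 h by -0.93 ± 0.25 (adjusted p = 0.0275) and -1.29 ± 0.32 (adjusted p = 0.022). None of these calls at 0 h or for the change was kept with only the groups concerned fitted, where no member was called. Those fits called only 2 of all 52788 DHS at 0 h and 32 for the change.

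**Figure D5:**
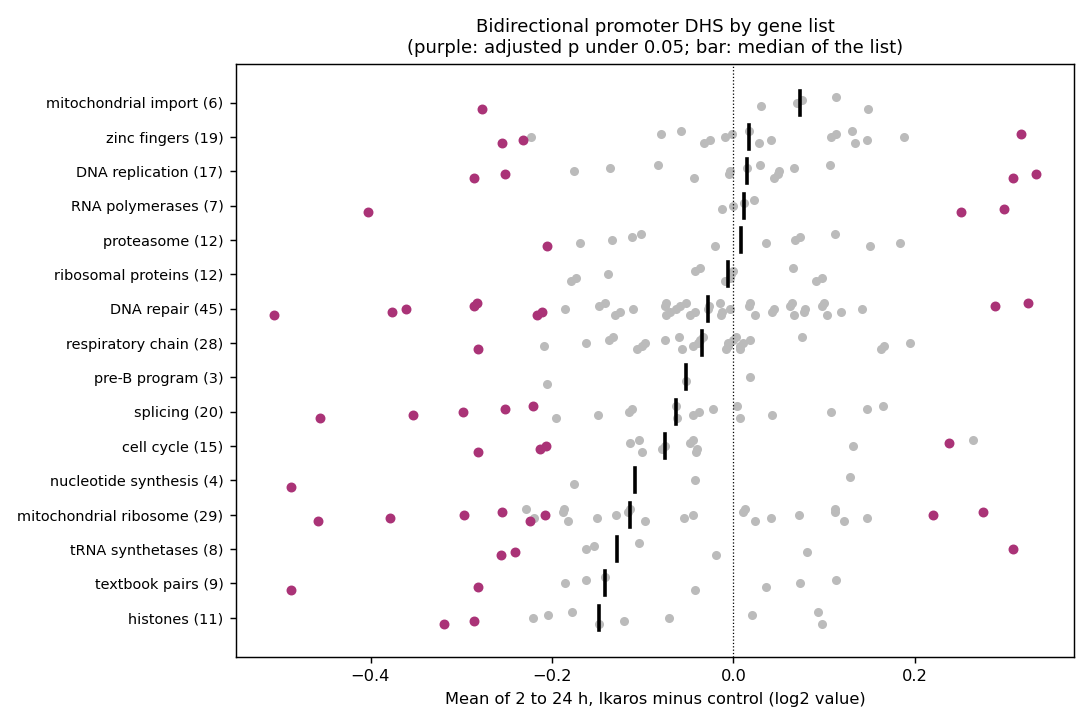
Mean difference of 2 to 24 h, Ikaros minus control in log2 value (x axis), for each member of 16 gene lists (y axis, number of members in brackets), with purple points for adjusted p under 0.05 and a bar for the median of the list. Calls lie on both sides of 0 in DNA repair, DNA replication, RNA polymerases, tRNA synthetases, zinc fingers, cell cycle and the mitochondrial ribosome.

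The counts of the gene lists over 2 to 24 h are to be read against the 24.7% of members and 29.5% of all DHS called. List counts with trends removed stand beside 24.9% of members higher and 7.85% lower. Those after quantile normalization stand beside 30.5% and 5.44%. Of all 52788 DHS 6199 were higher and 6243 lower with trends removed, and 7589 and 7203 after quantile normalization. Of 45 members of DNA repair 9 were called (20.0%), 2 higher and 7 lower, with a median of -0.03. Lower were Xrcc3/Zfyve21 (-0.51), with a gene of homologous recombination, Mus81/Cfl1 (-0.38), with a structure-specific endonuclease, and Rpa3/Umad1 (-0.29), with a subunit of the single-strand binding protein. Eif2b1/Gtf2h3 (0.32), with a TFIIH subunit, was higher. Xrcc3/Zfyve21 ran from 5.49 to 6.68 with a median of 5.99 in control and from 5.24 to 5.75 with a median of 5.55 in Ikaros libraries (adjusted p = 0.000417). With trends removed the list gave 11 higher and 6 lower, and 5 members were called one way in every setting (2 higher, 3 lower), among them Xrcc3/Zfyve21, Mus81/Cfl1 and Eif2b1/Gtf2h3.

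In DNA replication 4 of 17 were called, 2 in each direction. Lower were Prpf38a/Orc1 (-0.25) and Rpa3/Umad1, and higher were Orc3/Rars2 (0.31) and Dbf4/Slc25a40 (0.33), with origin recognition subunits and the activator of the Cdc7 kinase. With trends removed 3 were higher and 0 lower, and Orc3/Rars2 held in every setting. Of 4 members of nucleotide synthesis 1 was called, Tk1/Afmid. Gart/Son DHS 2 and DHS 1, at a purine synthesis enzyme, stood at -0.18 and 0.13. In the cell cycle list 4 of 15 were called, Cks1b/Shc1 (-0.28), Cmc2/Cenpn DHS 1 (-0.21) and DHS 2 (-0.21) lower and Ssna1/Anapc2 (0.24) higher. They encode a partner of cyclin-dependent kinases, a centromere protein and a subunit of the anaphase-promoting complex. With trends removed 3 were higher and 0 lower, and Ssna1/Anapc2 held in every setting.

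Mitochondrial genes gave 29 members of the mitochondrial ribosome, 28 of the respiratory chain and 6 of import. For the ribosome 8 were called, 2 higher and 6 lower (median -0.11), among the lower ones Helq/Mrps18c (-0.46), Mrps30/B430218F22Rik (-0.38), Eme2/Mrps34 (-0.30) and Ncapd2/Mrpl51 (-0.22). With trends removed it gave 7 higher and 1 lower, the last being Helq/Mrps18c, which was lower in every setting, and 2 members of the list were higher in every setting. Helq/Mrps18c ran from 4.60 to 5.17 with a median of 4.89 in control and from 4.19 to 4.69 with a median of 4.46 in Ikaros cells (adjusted p = 1.8e-05). In the respiratory chain 1 of 28 was called (3.57%, against 29.5% of all DHS), Ndufa2/Ik (-0.28) lower, while Ndufs1/Eef1b2, Tatdn1/Ndufb9 and Ndufa13/Tssk6 DHS 2 stood at -0.21, 0.19 and -0.16. Quantile normalization gave 10 higher and 1 lower there, where 30.5% of all members were higher. In import 1 of 6 was called, Pqbp1/Timm17b (-0.28) lower, with 0.15 at Timm23/Parg and 0.08 at Sdhd/Timm8b, and with trends removed 4 were higher and 0 lower.

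Protein synthesis and turnover were represented by 8 members with tRNA synthetases, 12 with ribosomal proteins and 12 with proteasome subunits. Of the synthetases 3 were called, Ears2/Ubfd1 (-0.26) and S100pbp/Yars (-0.24) lower and Orc3/Rars2 higher. Quantile normalization gave 2 higher and 0 lower, trend removal 2 and 2, and only Orc3/Rars2 held in every setting. None of the 12 ribosomal protein members was called (0 with the replicate number as a block, 5 with trends removed, all higher), and 2 had an unadjusted p under 0.05, Rps27/Rab13 (-0.17) and Med22/Rpl7a (-0.18). Sphk2/Rpl18 DHS 1 and Rpl9/Lias stood at -0.14 and 0.09. Of the proteasome members 1 was called, Psmb9/Tap1 (-0.21) lower, which joins an immunoproteasome subunit and the peptide transporter of antigen presentation. Psme2/Rnf31 DHS 2, Psma7/Ss18l1 and AY074887/Psma4 stood at -0.17, 0.18 and -0.11. After trends were removed 2 of the proteasome members were higher and 1 lower.

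RNA genes included 20 spliceosome members, 5 of them called (25%, close to the share of all members) and all lower (12.4% of all DHS and 16.3% of members were lower), among them Prpf38a/Orc1, Snrpa/BC024978 (-0.35) and Sf3b3/Cog4 (-0.30). With trends removed 6 were higher and 1 lower, where 24.9% of all members were higher. Of 7 members with RNA polymerase subunits 3 were called, Lnx2/Polr1d DHS 1 (-0.40) lower and Lnx2/Polr1d DHS 2 (0.30) and Polr3c/Rnf115 (0.25) higher, and all 3 held in every setting. Ptcd3/Polr1a stood at 0.02.

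Of 11 replication-dependent histone members, which pair neighbouring H2A and H2B genes or H3 and H2B genes, 2 were called over 2 to 24 h, Hist1h2an/Hist1h2bp (-0.29) and Hist1h2bf/Hist1h2ad (-0.32), both lower. With the replicate number as a block Hist1h2bf/Hist1h2ad was not called, and with trends removed the list gave 1 higher and 0 lower. Hist1h2ag/Hist1h2bj stood at -0.22 and Hist1h3c/Hist1h2bb DHS 1 at -0.18. At 0 h their median difference was 0.00 where that of all members was 0.43, with 0 of 11 called and 0 at an unadjusted p under 0.05. Histone genes come in near-identical copies, and the part of sequence shared between copies in these values was not tested. Among 19 zinc finger (Zfp) members 3 were called, Zfp408/Arhgap1 (-0.23) and Zfp142/Bcs1l (-0.26) lower and Vps9d1/Zfp276 (0.32) higher, and Zfp672/Sh3bp5l stood at 0.19. Trend removal gave 10 higher and 0 lower, where 24.9% of all members were higher.

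The pre-B list, which includes the genes the study followed by RT-PCR, touched 3 members and none was called. Bcl6/Gm37419, with a repressor of germinal centre and pre-B cells, stood at -0.20 (adjusted p = 0.116). Lig4/Abhd13 DHS 1 and DHS 2, with the ligase that joins V(D)J breaks, stood at -0.05 and 0.02. With trends removed 1 of the 3 was called higher.

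To ask whether the line difference changed after induction, its value at 24 h was set against that at 0 h. All 152 members called (15.3%, against 6.26% of all DHS and 13.1% of one-directional promoters) fell in Ikaros relative to control cells. The median change was -0.51 for members, -0.50 for one-directional promoters and 0.12 for all DHS, and within replicates 4, 5 and 6 the member median was -0.40, -0.26 and -0.94. Trend removal moved the median over all DHS by more than 0.1, to -0.01, and that of the members to 0.12, with 7 called (6 higher, 1 lower). Quantile normalization gave 33 (5 higher, 28 lower). Of all DHS 0.33% were called with trends removed and 2.55% after quantile normalization. Without replicate 4, 5 or 6 in all groups the count was 82, 10 or 0, dropping Control 0h replicate 5 raised it to 279 and dropping replicate 6 of that group left 34. Single libraries of the other groups left 57 or 82 (Control 24h replicate 4 or 6), 100 (Ikaros 0h replicate 6), and 88, 65 or 62 (Ikaros 24h replicate 4, 5 or 6). The 0 h values enter each of these, so the change and the 0 h difference are not separate evidence.

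The 5 largest changes were all lower, and 4 are described. Brd2/H2-DMa (chr17:34122361-34123023) joins a BET bromodomain gene and a chaperone of MHC class II peptide loading. At 0 h it read 4.70, 5.24 and 4.21 in control and 6.20, 6.01 and 6.00 in Ikaros libraries, and at 24 h 5.23, 5.20 and 4.96 in control and 5.04, 4.79 and 4.98 in Ikaros libraries. The lines were apart at 0 h and overlapped at 24 h, a change of -1.55 ± 0.29 (adjusted p = 0.00664). Mtrr/Fastkd3 (chr13:68581880-68582488), a methionine synthase reductase and a mitochondrial RNA-binding protein, read 5.00, 5.16 and 4.62 in control and 5.94, 5.93 and 5.98 in Ikaros libraries at 0 h. At 24 h it read 5.64, 5.29 and 5.23 in control and 5.21, 4.96 and 5.04 in Ikaros libraries. There the Ikaros libraries lay above the control libraries at 0 h and below them at 24 h (change -1.35 ± 0.23, adjusted p = 0.00515). The changes were -1.53 ± 0.31 at Hnrnpdl/Enoph1 DHS 1 (adjusted p = 0.00877) and -1.34 ± 0.29 at Epb41/Gm10300, with a membrane skeleton protein (adjusted p = 0.0123). None of the 4 was called with trends removed, with only the 4 groups fitted or without replicate 6, and each lost its call without replicate 4 or 5 too.

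The interaction of line and time, an F-test over the 6 times, called 33 members (3.32%, against 1.10% of all DHS and 2.48% of one-directional promoters). In each the largest departure from 0 h was a fall in Ikaros relative to control cells, as in 192 of the 193 one-directional calls. Smallest in p were Mtrr/Fastkd3, Qrsl1/Rtn4ip1 and Brd2/H2-DMa, with adjusted p of 0.013, 0.013 and 0.0178. Qrsl1/Rtn4ip1 holds 2 genes of mitochondrial proteins whose starts are 62 bp apart, and read 4.34, 4.13 and 4.38 in control and 5.19, 5.06 and 5.00 in Ikaros libraries at 0 h. At 12 h it read 4.46, 4.78 and 4.79 in control and 4.02, 4.37 and 4.09 in Ikaros libraries, and the order of the lines was turned round without overlap at either time. The count was 15 with the replicate number as a block, 3 after quantile normalization and 1 with trends removed (0.498%, 0.369% and 0.017% of all DHS). Leaving out one library moved it by more than 1.5 times for 23 of the 36, between 1 (Control 0h replicate 6) and 87 (Control 12h replicate 4), and leaving out replicate 4, 5 or 6 in all groups gave 6, 0 or 0.

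Over time within a line, 22 members changed in Ikaros cells (2.22%, against 2.29% of all DHS and 2.53% of one-directional promoters). In control cells 0 changed (0.148% of all DHS). Each of the 22 had a fall from 0 h as its largest step, as had 192 of the 197 one-directional calls. In control cells 139 members had an unadjusted p under 0.05, and in 895 of 993 the largest step was upward. With only the Ikaros groups fitted 101 were called. Trend removal gave 19 in Ikaros cells, 17 of them upward. Dropping Ikaros 0h replicate 4, 5 or 6 left 2, 9 or 14 in Ikaros cells, dropping Ikaros 12h replicate 4 left 13, and dropping any one replicate number from all groups left 0. Of all 52788 DHS 0, 1 and 187 were left without replicate 4, 5 and 6 in all groups. For control cells the count became 3, 2 or 1 without Control 0h replicate 4, Control 0h replicate 5 or Control 2h replicate 5, and 37 without replicate 4 in all groups (1.23% of all DHS). Whether the lines differ in this was not tested beyond the interaction above.

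In 52 gene pairs the rule found 2 DHS, which gives the same genes more than once (104 members). Their levels differed by a median of 0.32, and by up to 1.15. Over 2 to 24 h neither was called in 32 pairs, 1 in 15 and both in 5, of which 3 moved the same way. The other 2 pairs, named for being so few, went opposite ways. At Lnx2/Polr1d, DHS 1 (chr5:147076350-147076885) ran from 4.89 to 5.91 with a median of 5.36 in control and from 4.64 to 5.25 with a median of 4.93 in Ikaros libraries (difference -0.40 ± 0.09, adjusted p = 0.00186). DHS 2 (chr5:147077202-147077754), the next one along the chromosome, ran from 3.92 to 4.93 with a median of 4.61 and from 4.43 to 5.44 with a median of 4.91 (difference 0.30 ± 0.08, adjusted p = 0.0059). At Caskin2/Tsen54, with a subunit of the tRNA splicing endonuclease, DHS 1 (chr11:115813845-115814364) differed by -0.32 ± 0.09 and DHS 2 (chr11:115814464-115814965) by 0.43 ± 0.12 (adjusted p = 0.00671 and 0.00701). Both DHS of Lnx2/Polr1d and DHS 2 of Caskin2/Tsen54 kept their call in every setting, and DHS 1 of Caskin2/Tsen54 did not. In both pairs the DHS with the lower level was the one that was higher in Ikaros cells. The difference between the DHS of a pair was not tested as such.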

How the data were processed

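DNase-seq was measured in 36 libraries of 12 groups. The authors trimmed the reads, aligned them with Bowtie2 to mm10, called peaks per replicate with HOMER, merged them into consensus regions and counted reads per region with bedtools. The deposited log2 values were made by the authors from those counts by RPKM, TMM and ARSyN, a correction that removes variation not tied to the groups. The file does not name the log base, which was taken as 2 from the sum of the read densities. Columns were matched to samples by their descriptions, and 0 sample columns were left unused. Whether region starts count from 0 or 1 is not stated, and the names were used as given.

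Start sites came from the GENCODE vM21 basic annotation and sequences from GRCm38. Group means were fitted with limma 3.58.1 (R 4.3.3; lmFit, contrasts, eBayes with trend) over all 52788 DHS, two-sided, with Benjamini-Hochberg adjustment and a threshold of 0.05, and every adjusted p given is from this fit. Errors after ± are standard errors. The script was tested on simulated data. Members and gene lists were chosen with earlier results of these data known. Genes were named by size among calls whose groups do not overlap (up to 5 each way), as textbook pairs, and as the up to 4 smallest p per list. The members with the smallest interaction p, and the highest and lowest levels, were named as well.

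Alternatives were the replicate number as a block, quantile normalization, removal of each library's trends with level, GC content and width (splines), dropping DHS under a mean of 3, fitting only the groups concerned, and leaving out replicates or libraries. Replicate numbers are batches per the labels and so pair the samples, though deviations of same-numbered libraries had a median correlation of -0.0103, against 0.00789 for different numbers. Some members that the rule names are not reported here.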

Additional observations from a re-analysis of the deposited data

Results flagged for a closer look

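The line difference varied over time in 33 members by the limma F-test of the interaction, which is why they are listed here. That is 3.32% of members, against 1.10% of all DHS and 2.48% of one-directional promoters. For the 3 with the smallest p, the largest departure of each from its 0 h difference was -1.48 (Mtrr/Fastkd3), -1.32 (Qrsl1/Rtn4ip1) and -1.73 (Brd2/H2-DMa). These are on the log2 scale and in the direction of a lower value in Ikaros cells. In these 3 the Ikaros libraries lay above all control libraries at 0 h. With the trends of each library taken out, 1 member was left and none of these 3 was called.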

How the results depend on the processing

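With trends removed, calls numbered 62 for 0 h, 1 for 2 h, 8 for 6 h, 5 for 12 h and 3 for 18 h. They numbered 7 for the change from 0 to 24 h and 1 for the interaction. The member medians turned to -0.018 at 0 h, 0.078 for 2 to 24 h and 0.117 for the change, and Thap4/Atg4b turned to -0.024 at 0 h. After quantile normalization the calls were 200 at 0 h, 8 at 6 h, 9 at 24 h, 33 for the change and 3 for the interaction, and the median for 2 to 24 h turned to 0.117. With the replicate number as a block, calls were 3 at 6 h, 1 at 24 h and 15 for the interaction, and no other count moved by over 1.5 times. Fitting only the groups concerned gave 0 calls each for 0, 6 and 12 h, 2 for 24 h, 0 for the change and 101 for time in Ikaros cells. These fits called 2, 9 and 0 of all 52788 DHS at 0, 6 and 12 h. They called 700 at 24 h, 32 for the change and 3968 for time in Ikaros cells. The cause of these shifts was not tested.

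Leaving out single libraries or a replicate number gave 49 to 444 calls for 0 h. It gave 0 to 2 for 2 h, 0 to 7 for 6 h, 0 to 8 for 12 h, 0 for 18 h and 0 to 1 for 24 h. The range was 76 to 286 for 2 to 24 h, 0 to 279 for the change, 0 to 87 for the interaction, 0 to 25 for time in Ikaros cells and 0 to 37 for time in control cells. Member medians ran from 0.274 to 0.537 at 0 h, from -0.058 to -0.011 for 2 to 24 h and from -0.653 to -0.307 for the change. The methods state a minimum read depth, but the depth of each library is unknown, and counting error was not measured.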

Other observations

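Members with the NRF1 letters, 71 in all, had a median level of 5.47, against 5.10 for the rest. Over 2 to 24 h 12 of them were higher in Ikaros cells and 12 lower, and with trends removed 27 were higher and 3 lower. The 42 members with TATAAA had a median level of 5.06, with 3 higher and 12 lower, or 15 higher and 5 lower with trends removed. Of all members 8.36% were higher and 16.3% lower, or 24.9% and 7.85% with trends removed. These are counts of calls with no test of the letters.

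The 67 members with no start inside the DHS had a median level of 4.88, a median GC content of 58.2% and a CpG ratio of 0.687. The 728 members with both starts inside had 5.18, 63.0% and 0.848. At 0 h 25.4% of the former (17 members) and 36.7% of the latter were called, against 12.9% of all DHS.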
